A study of Mus musculus with 151 samples.

Results

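Fgf8, the ligand that inner hair cells (IHCs) secrete, and 9 further genes of fibroblast growth factor (FGF) signalling were read in single mouse cochlear hair cells. The 10 genes were chosen by name, with no measured value in the rule, but with earlier results of these data known. They were the ligands Fgf8, Fgf10 and Fgf20, the receptors Fgfr1, Fgfr2, Fgfr3 and Fgfr4, and the feedback inhibitors Spry1, Spry2 and Spry4. All 10 were found among the 55291 genes of the count table. FGF ligands bind receptor tyrosine kinases together with heparan sulfate and switch on the RAS, RAF, MEK and ERK kinases, and ERK in turn raises the transcription of Sprouty, SPRED and DUSP genes, which damp the pathway. In the organ of Corti, Fgf8 from IHCs acts on Fgfr3 in the neighbouring supporting cells and directs pillar cell differentiation, Spry2 limits that response, and Fgf10 and Fgf20 act earlier, in the prosensory epithelium.

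The cells came from C57BL/6 cochleae and fell in 3 groups: 55 P14_WT IHCs and 50 P30_WT IHCs from vGlut3-P2A-iCreER/+; Ai9/+ mice, and 46 P14_iOHCs from vGlut3-P2A-iCreER/+; Tbx2 flox/-; Ai9/+ mice. An iOHC, or induced outer hair cell (OHC), is a former IHC that took on OHC features after Tbx2, a T-box transcription factor, was deleted. All 3 groups carried the inducible Cre in the locus of vGlut3 (Slc17a8), an IHC gene, and the Ai9 reporter, and tamoxifen was given at P2 and P3, so that WT refers to Tbx2 only. Mice of the P14_iOHC group also carried a germline null Tbx2 allele in every tissue, and the cells of that group were picked as the smaller reporter-positive cells. No source used here names the mouse of a cell, so each group stands as 1 sample of many cells: spreads over cells are given as a description, and no test was made between groups.

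Total counts ran from 4326416 to 25035444 per cell with a gap between 10267217 and 11814928, and the 51 cells below it (the lower set) and the 100 above it (the upper set) included cells of each group. Levels are given as CPM, the counts of a gene for every 1000000 counts of its cell, which is a share and not an amount of RNA per cell, and 3 counts, the limit that a count of 0 allows, were worth 0.120 to 0.693 CPM. The reads carry no molecular identifiers, so every interval covers counting error only. Summed over 4 IHC markers the median was 5443 CPM in P14_WT IHCs, 317 CPM in P14_iOHCs and 5521 CPM in P30_WT IHCs, and summed over 5 OHC markers it was 869, 45445 and 416 CPM. P14_iOHC 44 went against its label in these sums. Its OHC markers summed to 1552 CPM, below the highest P14_WT IHC at 5949 CPM, and its IHC markers to 4511 CPM. Its Slc26a5, the gene of the OHC protein Prestin, went with the label, at 142 CPM, where P30_WT IHCs had a mean of 0.0053 CPM. The paper defines iOHCs by Prestin protein, and the identity of this cell was not tested. Tbx2 itself was counted at 260 ± 127 CPM (SD, n = 55 cells) in P14_WT IHCs and 69.3 ± 87.4 CPM (SD, n = 46 cells) in P14_iOHCs, but counts over the whole gene also take in transcripts of a deleted allele and do not show which cells lost it. The 18 supporting cell markers other than Fbxo2 (Gjb2, Sox10, Epyc and others) had a summed median of 41.7 CPM in P14_WT IHCs, 970 CPM in P14_iOHCs and 125 CPM in P30_WT IHCs. In 16 P14_iOHCs this sum lay above that of every P14_WT IHC, whose highest was 1826 CPM, and it did so in no P30_WT IHC. Of the defining markers, Prox1 was at 0 in both P14 groups and Ngfr in P14_iOHCs. Of all 19 markers, 16 had at least 5 counts in at least 10 P14 cells. In P14_iOHCs 8 of these were more than 4-fold higher than in P14_WT IHCs and 1 was lower, Tecta, at a log2 fold of -2.54. Of all 13673 genes with that many counts, 5.83% were more than 4-fold higher and 2.85% more than 4-fold lower. The summed median of fibroblast markers, too, was higher in P14_iOHCs, at 29.7 CPM against 6.599 and 7.14 CPM in P14_WT and P30_WT IHCs, while that of neuron markers other than Nefl and Nefm was 0 in each group.

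Fgf8 was the only one of the 10 genes found in most P14_WT IHCs. It lies on the minus strand of chr19:45736798-45742915 (GRCm38, ENSMUSG00000025219.13), with 6 merged exons that share no base with exons of another gene. At least 1 count was present in 50 of 55 P14_WT IHCs (90.9%, exact interval 80.05% to 97.0%), in 37 of 46 P14_iOHCs (80.4%, 66.1% to 90.6%) and in 5 of 50 P30_WT IHCs (10.0%, 3.33% to 21.8%). In P14_WT IHCs the level ran from 0 through a median of 97.8 to 450 CPM, with quartiles of 34.7 and 204 CPM. In P14_iOHCs it ran from 0 through a median of 17.2 to 152 CPM, with quartiles of 0.193 and 45.4 CPM. In P30_WT IHCs the median and both quartiles were 0 and the highest cell was at 24.7 CPM. The order of the levels was therefore P14_WT IHCs, P14_iOHCs, P30_WT IHCs, and the cells of neighbouring groups overlapped: 21 of 55 P14_WT IHCs lay above every P14_iOHC, and 43 of 46 P14_iOHCs lay below the P14_WT IHC median, 31 of them below its lower quartile. Against the highest P30_WT IHC, 45 of 55 P14_WT IHCs and 19 of 46 P14_iOHCs were higher.

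**Figure D1:**
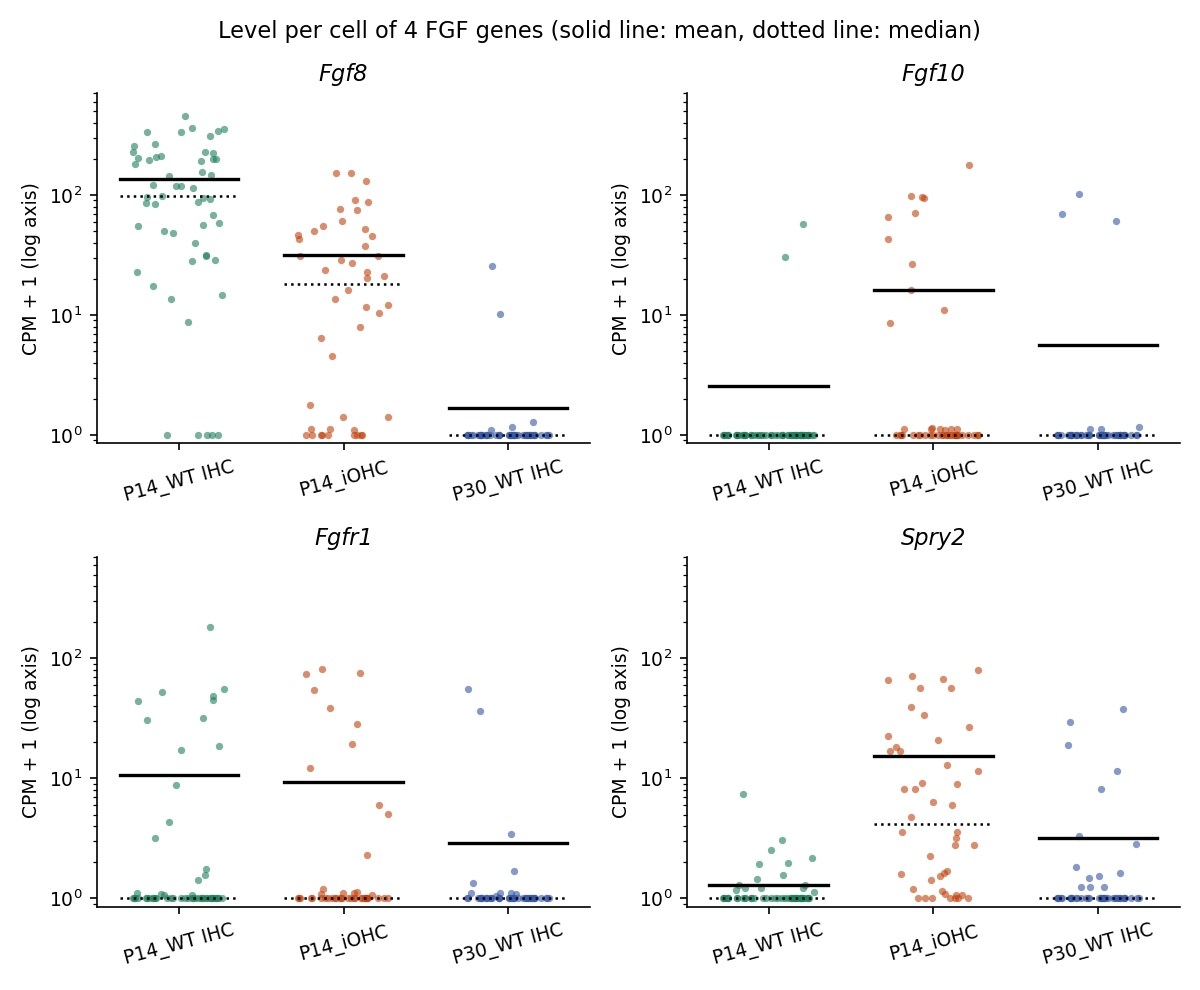
Level of Fgf8, Fgf10, Fgfr1 and Spry2 in each cell, as CPM + 1 on a log axis, for the 3 groups; each point is 1 cell, solid lines are means and dotted lines medians. Fgf8 filled the upper range in P14_WT IHCs and was near 0 in P30_WT IHCs, while Spry2 was high in P14_iOHCs, where 20 of 46 cells lay above every P14_WT IHC.

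The mean of Fgf8 was 134 ± 115 CPM (SD, n = 55 cells) in P14_WT IHCs and 30.8 ± 39.6 CPM (SD, n = 46 cells) in P14_iOHCs, a log2 fold of -2.08 on the scale of mean CPM + 1, or 4.24-fold lower in P14_iOHCs. The summed counts behind these means were 108236 (exact Poisson interval 107592 to 108883) and 20081 (19804 to 20361). In P30_WT IHCs the mean was 0.691 ± 3.71 CPM (SD, n = 50 cells), from 283 counts in all (251 to 318), a log2 fold of -6.32 against the same P14_WT IHCs, or 79.7-fold lower. P30_WT IHC 5 alone held 71.6% of the summed CPM, and without it the log2 fold was -6.81. Both fold sizes were past 4-fold, the size that the study used and that is called past the fold here. The P14 value lay close to that line: it was -1.92 with DESeq2 size factors, -1.77 without the 16 P14_iOHCs high in supporting cell markers and -1.50 in the lower set of totals alone, against -2.32 in the upper set. Without P14_iOHC 44, in which Fgf8 was at 0, it was -2.05.

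The 5 P30_WT IHCs with Fgf8 counts held 1 to 201 of them, and all 5 had low totals, as 23 of the P30_WT IHCs did. None of the 27 P30_WT IHCs with high totals held a count. The shares in the P14 groups had the same direction: in P14_WT IHCs all 16 cells of the lower set had Fgf8 counts, against 34 of 39 in the upper set. In P14_iOHCs 10 of 12 did, against 27 of 34. The mean level went the other way in P14_WT IHCs, at 116 CPM in the lower and 141 CPM in the upper set. In P14_iOHCs it was 40.4 and 27.4 CPM. In the WT groups the lower set held the lowest cell numbers, P14_WT IHC 1 to 16 and P30_WT IHC 1 to 23. The labels name no batch, and the part of the set of totals in these shares was not tested. The IHC markers of the 5 P30 cells summed to between 5266 and 8040 CPM, within the range of their group.

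Fgf10 was the ligand with the opposite order at P14. It lies on the plus strand of chr13:118669791-118792115 (GRCm38), and 123 exon bases are shared with the antisense gene Gm16263, whose reads cannot be told apart here, since the strand setting of the counting is not given. Only 2 of 55 P14_WT IHCs held counts, at 56.0 and 29.2 CPM, against 18 of 46 P14_iOHCs and 6 of 50 P30_WT IHCs. In P14_iOHCs the median was 0 and the highest cell at 175 CPM, and 10 cells were at or above 10 CPM. In P30_WT IHCs the highest cell was at 101 CPM. The means were 1.55 ± 8.45 CPM (SD, n = 55 cells), 15.1 ± 36.2 CPM (SD, n = 46 cells) and 4.59 ± 18.8 CPM (SD, n = 50 cells). The log2 fold of P14_iOHCs over P14_WT IHCs was 2.66, and it was 3.39 without P14_WT IHC 33. Fgf10 counts lay mostly in the iOHCs high in supporting cell markers: 11 of those 16 cells held counts, with a mean of 38.5 CPM, against 7 of the other 30, with a mean of 2.70 CPM. Without those 16 cells the log2 fold was 0.54 and the gene did not pass the filter on counts. The Spearman rho of Fgf10 with the summed supporting cell markers was 0.56 over the 46 P14_iOHCs. Fgf10 did not pass the filter in the comparison of ages. The bases before the RefSeq start of Fgf10 are shown because it is one of the members that were higher in P14_iOHCs. They are the 250 bases upstream on the plus strand at chr13:118714449-118714698 (RefSeq, GRCm38.p6), which lie within the span of the gene model but in none of its exons, with GGAA, the core of sites for ETS factors, or its complement TTCC in capitals.
Fgf10 upstream: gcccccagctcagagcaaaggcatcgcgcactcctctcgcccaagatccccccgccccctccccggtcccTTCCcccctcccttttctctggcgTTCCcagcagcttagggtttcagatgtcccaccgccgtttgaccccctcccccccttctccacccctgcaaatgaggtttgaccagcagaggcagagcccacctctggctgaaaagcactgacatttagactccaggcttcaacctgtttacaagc

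Fgf20 (chr8:40279166-40308331, minus strand), a ligand of the early prosensory domain, was found in 1 cell. That P14_WT IHC held 201 counts (10.2 CPM), and the gene was at 0 in 46 of 46 P14_iOHCs and 50 of 50 P30_WT IHCs, which allows shares of up to 6.52% and 6.00% of cells when the limit is set at 3 cells of the total, as for every value at 0 here, and not by the exact interval used for other shares. Its exons share 202 bases with those of Micu3 on the other strand.

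Among the receptors only Fgfr1 was found in more than 10 cells of a group. It was present in 20 of 55 P14_WT IHCs, 17 of 46 P14_iOHCs and 10 of 50 P30_WT IHCs. Its median was 0 in each group, and the highest cells were at 182, 80.8 and 54.9 CPM. The mean was 9.70 ± 27.99 CPM (SD, n = 55 cells) in P14_WT IHCs and 8.43 ± 20.9 CPM (SD, n = 46 cells) in P14_iOHCs, a log2 fold of -0.18, which was 0.33 without P14_WT IHC 8. In P30_WT IHCs the mean was 1.90 ± 9.18 CPM (SD, n = 50 cells), a log2 fold of -1.89 that was not past 4-fold. It was past 4-fold without P30_WT IHC 14 (-2.56) and without P30_WT IHC 41 (-2.28). All 20 P14_WT IHCs with Fgfr1 counts also held Fgf8 counts, as did 13 of 17 such P14_iOHCs. Over all cells Fgf8 was present in 90.9% of P14_WT IHCs and 80.4% of P14_iOHCs, so these overlaps lay near the group shares. Fgfr1 lies on chr8:25513654-25575718 (GRCm38, plus strand), and 164 of its exon bases are shared with the antisense gene Gm16159.

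Fgfr3 (chr5:33721674-33737068, plus strand), the receptor through which IHC-derived Fgf8 acts on pillar cell precursors, was found in 1 P14_WT IHC, 4 P14_iOHCs and 2 P30_WT IHCs, with 1, 468 and 8 counts in all. P14_iOHC 36 held the highest level, 19.2 CPM. Of the Fgfr3 exon bases, 998 are shared with G630022F23Rik on the other strand, the largest overlap of the 10 genes. Fgfr2 (chr7:130162451-133123350, minus strand), a receptor for Fgf10, was found in 2, 4 and 7 cells with 23, 6 and 17 counts in all, and 314 of its exon bases are shared on the same strand with Ctbp2, the gene of the ribbon protein RIBEYE. Fgfr4 (chr13:55152640-55168759, plus strand) was found in 1, 8 and 5 cells. P14_iOHC 19 held 1929 Fgfr4 counts (114 CPM), 99.3% of the summed level of its group, and no other P14_iOHC was above 0.330 CPM. At least 1 count of any of the 4 receptors was present in 24 of 55 P14_WT IHCs, 27 of 46 P14_iOHCs and 19 of 50 P30_WT IHCs, and at least 5 counts of one of them in 16, 14 and 9 cells. Fgfr2, Fgfr3 and Fgfr4 passed the filter in neither comparison, so no fold is given for them.

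**Figure D2:**
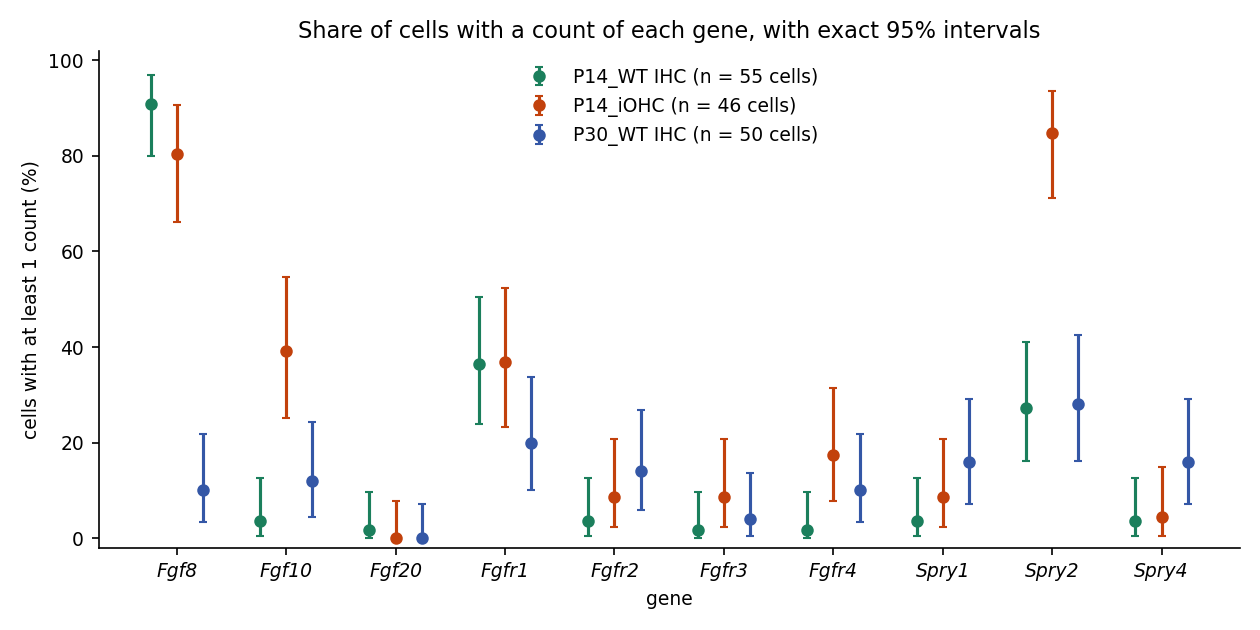
Share of cells with at least 1 count of each of the 10 genes in percent, with exact 95% intervals for counting error, for the 3 groups. Fgf8 stood at 90.9%, 80.4% and 10.0%, and Spry2 at 27.3%, 84.8% and 28%, in P14_WT IHCs, P14_iOHCs and P30_WT IHCs.

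Spry2, the Sprouty gene known to restrain Fgf8 responses in the organ of Corti, was the most widespread member in P14_iOHCs. It lies on the minus strand of chr14:105891947-105896819 (GRCm38, ENSMUSG00000022114.5), with no exon base shared. Counts were present in 15 of 55 P14_WT IHCs (27.3%, exact interval 16.1% to 40.96%), 39 of 46 P14_iOHCs (84.8%, 71.1% to 93.7%) and 14 of 50 P30_WT IHCs (28%, 16.2% to 42.5%). With every cell thinned to 4326416 counts the shares were 21.8%, 82.6% and 26%. In P14_WT IHCs the median was 0 and the highest cell at 6.48 CPM. In P14_iOHCs the median was 3.20, with quartiles of 0.257 and 16.9 CPM, and the highest cell was at 79.0 CPM. In P30_WT IHCs the median was 0 and the highest cell at 36.9 CPM. The groups overlapped at the low end, and 20 of 46 P14_iOHCs lay above every P14_WT IHC. The means were 0.287 ± 0.945 CPM (SD, n = 55 cells), 14.4 ± 22.1 CPM (SD, n = 46 cells) and 2.18 ± 7.07 CPM (SD, n = 50 cells). The log2 fold of P14_iOHCs over P14_WT IHCs was 3.58, or 12.0-fold, and between 3.44 and 3.72 with any 1 cell left out. The log2 fold of P30_WT IHCs over P14_WT IHCs was 1.30.

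Spry2 also followed the supporting cell markers within P14_iOHCs. All 16 iOHCs high in those markers held Spry2 counts, with a mean of 23.3 CPM, and 23 of the other 30 did, with a mean of 9.67 CPM and a median of 0.655 CPM. Without the 16 cells the log2 fold over P14_WT IHCs was 3.05. Spearman's rho of Spry2 with the marker sum was 0.59 over the 46 cells, and with the number of detected genes 0.46. Between Spry2 and Fgf8 rho was -0.46 over the same cells, and Fgf8 had a mean of 16.3 CPM in the 16 cells and 38.5 CPM in the other 30. Counts of both genes were present in 31 of 46 P14_iOHCs, 14 of 55 P14_WT IHCs and 3 of 50 P30_WT IHCs. Taken singly, Fgf8 was present in 80.4%, 90.9% and 10.0% of all cells of these groups, and Spry2 in 84.8%, 27.3% and 28%. The part of supporting cell RNA in these levels was not tested. The 250 bases before the RefSeq start of Spry2, on the minus strand at chr14:105896820-105897069 (GRCm38.p6), are shown for comparison with those of Fgf10, with GGAA or TTCC again in capitals.
Spry2 upstream: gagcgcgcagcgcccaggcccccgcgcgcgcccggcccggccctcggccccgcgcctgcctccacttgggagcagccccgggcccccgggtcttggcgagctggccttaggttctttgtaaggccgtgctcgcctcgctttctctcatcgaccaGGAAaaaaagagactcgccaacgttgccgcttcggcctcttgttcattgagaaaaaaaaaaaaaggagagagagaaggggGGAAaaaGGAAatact
GGAA was found on either strand 3 times here and 2 times before Fgf10, and 93.4% of 32851 promoter windows of this length held it, with a median of 3 matches. The longer ETS site CCGGAAGT, in 2.88% of the windows, the T-box half-site AGGTGTGA, in 1.12%, and its shorter core GGTGTG, in 16.3%, were searched on both strands and matched in none of the windows of the 6 members found in the table (Fgf10, Fgfr2, Fgfr3, Fgfr4, Spry1 and Spry2). Fgf8, Fgf20, Fgfr1 and Spry4 have no entry in it.

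**Figure D3:**
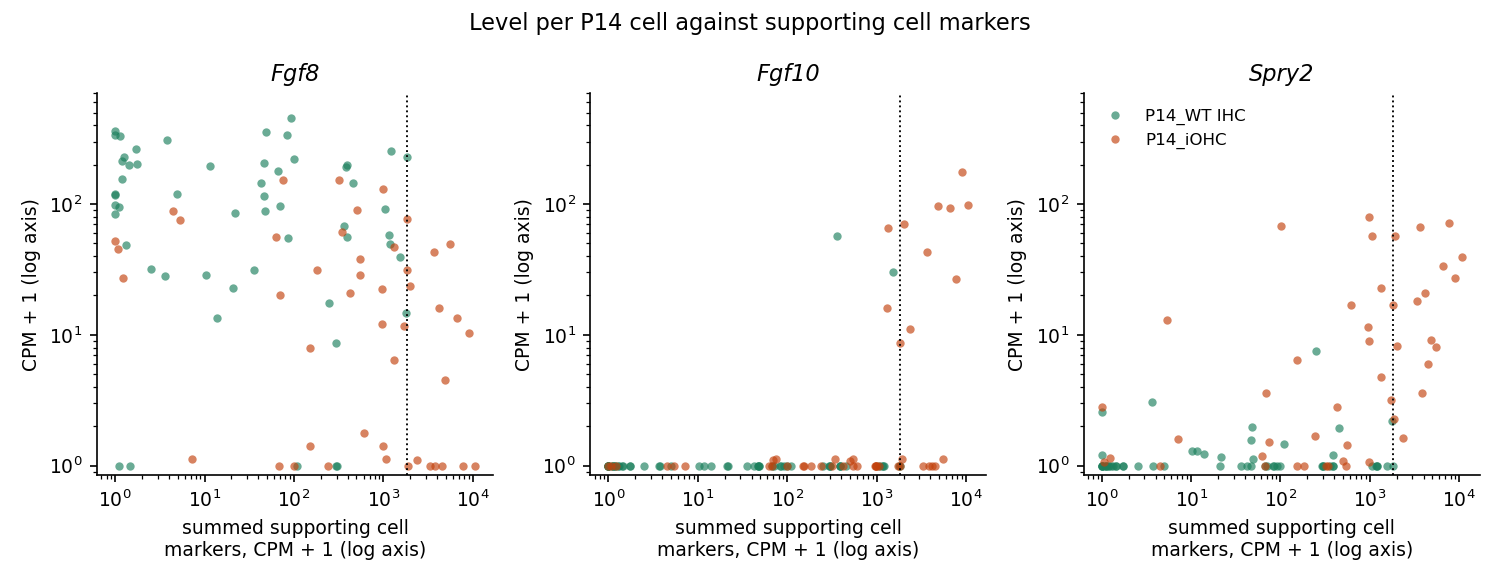
Level of Fgf8, Fgf10 and Spry2 in each P14 cell against the summed level of 18 supporting cell markers, both as CPM + 1 on log axes; points are cells and the dotted line is the highest P14_WT IHC sum, 1826 CPM. To the right of the line, in 16 P14_iOHCs, Fgf10 and Spry2 had means of 38.5 and 23.3 CPM, above their means of 2.70 and 9.67 CPM in the other 30 P14_iOHCs.

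Spry1 and Spry4 were rare in each group. Spry1 (chr3:37639947-37644598, plus strand) was found in 2 of 55 P14_WT IHCs, 4 of 46 P14_iOHCs and 8 of 50 P30_WT IHCs. Its highest cells were at 1.89, 58.0 and 73.3 CPM, and 710 of its exon bases are shared with Gm42922 on the other strand. Spry4 was found in 2, 2 and 8 cells with 2, 6 and 2903 counts in all. P30_WT IHC 44 held 1705 of these (105 CPM), and the mean of P30_WT IHCs was 4.16 ± 17.9 CPM (SD, n = 50 cells). With at least 5 counts in only 3 cells, Spry4 did not pass the filter. At least 1 Sprouty count was present in 16 of 55 P14_WT IHCs, 39 of 46 P14_iOHCs and 25 of 50 P30_WT IHCs.

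In the comparison of P14_iOHCs with P14_WT IHCs, 4 of the 10 genes had at least 5 counts in at least 10 cells (Fgf8, Fgf10, Fgfr1 and Spry2), and 3 of these were past 4-fold, Fgf8 lower and Fgf10 and Spry2 higher. Fgf10 passed the filter through the P14_iOHCs, with at least 5 counts in 23.9% of them against 3.64% of P14_WT IHCs. Its passing and its being higher were therefore not independent. Over all 13673 genes that passed, 8.68% were past 4-fold, 5.83% higher and 2.85% lower. This split turned with medians in place of means, to 660 higher and 1059 lower, and in the lower set of totals, to 307 higher and 407 lower. Without the 16 iOHCs high in supporting cell markers, 3 members passed and only Spry2 was past 4-fold, where the genes past 4-fold were 394 higher and 470 lower, against 797 and 390 with all cells. Again only Spry2 was past 4-fold without the 12 iOHCs that were high when Fbxo2 was kept in the list. In the lower set of totals only 2 members passed the filter, Fgf8 and Spry2, and Spry2 was past 4-fold. Fgf10 missed the filter there, with counts in 2 of 12 P14_iOHCs (mean 7.92 CPM) and in none of 16 P14_WT IHCs. Its log2 fold on the scale of mean CPM + 1 was 3.16 there, but this value rested on P14_iOHC 14, at 94.9 CPM. The other cell, P14_iOHC 11, held 1 count. P14_iOHC 14 was also among the 16 iOHCs high in supporting cell markers. In the comparison of P30_WT IHCs with P14_WT IHCs, 3 members passed (Fgf8, Fgfr1 and Spry2) and 1 was past 4-fold, Fgf8, which was lower, where 2.09% of 12946 genes were past 4-fold, 0.788% higher and 1.30% lower. With DESeq2 size factors the split over all genes with age turned from 37.8% to 62.7% higher among the genes past 4-fold, and Fgf8 stayed past 4-fold, at -6.13. Both comparisons use the same P14_WT IHCs. A count over the members that passed leaves out 6 and 7 of the 10, which were too rare to give a fold. Compared per kilobase of merged exons, the mean levels of the members in P14_WT IHCs were led by Fgf8, at 99.1 CPM per kb, with Fgfr1 next at 0.982. In P14_iOHCs the order was Fgf8 at 22.8, Spry2 at 6.91 and Fgf10 at 3.29 CPM per kb. In P30_WT IHCs all 10 were at or below 1.04 CPM per kb, the level of Spry2.

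The kinases and adaptors below the receptors were present in all groups. None was past 4-fold, where 8.68% of all genes that passed were at P14 and 2.09% with age. All 17 genes of the list of transducers passed the filter in both comparisons, with a median log2 fold of 0.28 for P14_iOHCs and 0.12 for P30_WT IHCs over P14_WT IHCs, beside 0.06 and -0.02 over all genes that passed. Mapk3, which encodes ERK1, had the highest level per length of the list, 45.99 CPM per kb in P14_iOHCs. Its mean was 66.8 ± 48.2 CPM (SD, n = 55 cells) in P14_WT IHCs, 104 ± 86.2 CPM (SD, n = 46 cells) in P14_iOHCs and 67.5 ± 61.0 CPM (SD, n = 50 cells) in P30_WT IHCs. Without the 16 iOHCs high in supporting cell markers the Mapk3 mean of P14_iOHCs was 65.2 CPM, and the log2 fold was -0.04 in place of 0.63. Frs3, an adaptor of FGF receptors, was the lowest in P14_iOHCs, with a log2 fold of -1.23 that was -2.21 without P14_iOHC 8.

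Of 10 further feedback inhibitors and ERK targets in the table, 6 passed the filter at P14 and 2 were past 4-fold, both higher in P14_iOHCs. Of all genes that passed, 8.68% were past 4-fold and 5.83% were past it and higher. Spred1, which blocks RAF activation, was found in 8 of 55 P14_WT IHCs and 29 of 46 P14_iOHCs, where its median was 2.59 and its highest level 174 CPM. Its means were 4.49 ± 17.5 CPM (SD, n = 55 cells) and 24.5 ± 38.7 CPM (SD, n = 46 cells), a log2 fold of 2.22, which was 2.83 without P14_WT IHC 16. Unlike Fgf10, it kept its size without the 16 iOHCs high in supporting cell markers, at 2.31. Dusp5, a phosphatase that inactivates nuclear ERK, had means of 0.631 ± 4.55 CPM (SD, n = 55 cells) and 6.14 ± 21.6 CPM (SD, n = 46 cells), a log2 fold of 2.13. It was under 4-fold without P14_iOHC 14 (1.36) or P14_iOHC 10 (2.00 after rounding), was 2.81 without P14_WT IHC 55, and was -0.64 without the 16 iOHCs. Dusp6, the ERK phosphatase with the highest level per length of this list, had a log2 fold of 0.81, with means of 17.9 ± 35.9 CPM (SD, n = 55 cells) and 32.1 ± 67.5 CPM (SD, n = 46 cells).

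With age, 5 of these 10 genes passed the filter and 1 was past 4-fold, beside 2.09% of all genes that passed. Etv5, an ETS transcription factor induced by FGF signalling, was found in 13 of 55 P14_WT IHCs, 5 of 46 P14_iOHCs and 31 of 50 P30_WT IHCs. Its highest cells were at 21.98, 126 and 220 CPM. The mean was 0.931 ± 3.47 CPM (SD, n = 55 cells) at P14 and 26.6 ± 46.8 CPM (SD, n = 50 cells) at P30, a log2 fold of 3.84, or 14.3-fold, between 3.61 and 4.16 with any 1 cell left out. The age at which Etv5 was higher was the one at which Fgf8 was at 0 in 45 of 50 cells. Within P30_WT IHCs Spearman's rho with the total count was 0.47 for Etv5 and -0.32 for Fgf8. A link between these genes was not tested.

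Among the 15 other secreted ligands, 2 passed the filter at P14 and 1 with age. Over all genes that passed, 8.68% were past 4-fold at P14 and 2.09% with age. Fgf1, a ligand that binds all FGF receptors, was past 4-fold in both comparisons, which share their P14_WT IHCs. It was found in 5 of 55 P14_WT IHCs, 11 of 46 P14_iOHCs and 14 of 50 P30_WT IHCs, with highest cells of 13.9, 103 and 62.7 CPM. Its means were 0.567 ± 2.51 CPM (SD, n = 55 cells), 8.32 ± 23.6 CPM (SD, n = 46 cells) and 5.79 ± 14.1 CPM (SD, n = 50 cells), with log2 folds of 2.57 at P14 and 2.12 with age. The value with age was under 4-fold when P30_WT IHC 5, 8, 20, 25 or 42 was left out, and 1.85 at the lowest, without cell 20. Fgf9, which had the highest level per length of these ligands, had a log2 fold of 0.95 at P14, which was 1.87 without P14_WT IHC 25.

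Counts of the remaining lists stand beside 8.68% of all genes past 4-fold at P14 and 2.09% with age. Of the 9 genes of heparan sulfate synthesis and editing, 8 passed at P14 and 1 was past 4-fold, Sulf1, a sulfatase that trims heparan sulfate outside the cell, at 0.133 ± 0.859 CPM (SD, n = 55 cells) in P14_WT IHCs and 4.90 ± 15.5 CPM (SD, n = 46 cells) in P14_iOHCs. It was not past 4-fold without P14_iOHC 3 (1.86) or without the 16 iOHCs high in supporting cell markers (0.61), whereas the chain polymerase Ext1 then was, at 2.02 against 1.80 with all cells. Glce, an epimerase with the highest level per length of this list, was at 31.8 ± 48.3, 28.6 ± 48.3 and 11.5 ± 23.8 CPM (SD over 55, 46 and 50 cells) in P14_WT IHCs, P14_iOHCs and P30_WT IHCs. With age 6 of the 9 passed and none was past 4-fold. Of the intracellular homologous factors, which bind sodium channels and do not signal through receptors, only Fgf12 of 4 passed, with log2 folds of -0.30 at P14 and -0.99 with age. The values were -1.11 without P14_iOHC 45 and -1.60 without P30_WT IHC 1, and 0.05 at P14 without the 16 iOHCs high in supporting cell markers. Fgfrl1, a receptor without a kinase domain, was the only one of 3 co-receptors and decoy receptors that passed. Its log2 fold in P14_iOHCs was 1.55, which was 2.24 without P14_WT IHC 50 and -0.05 without the 16 iOHCs high in supporting cell markers.

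**Figure D4:**
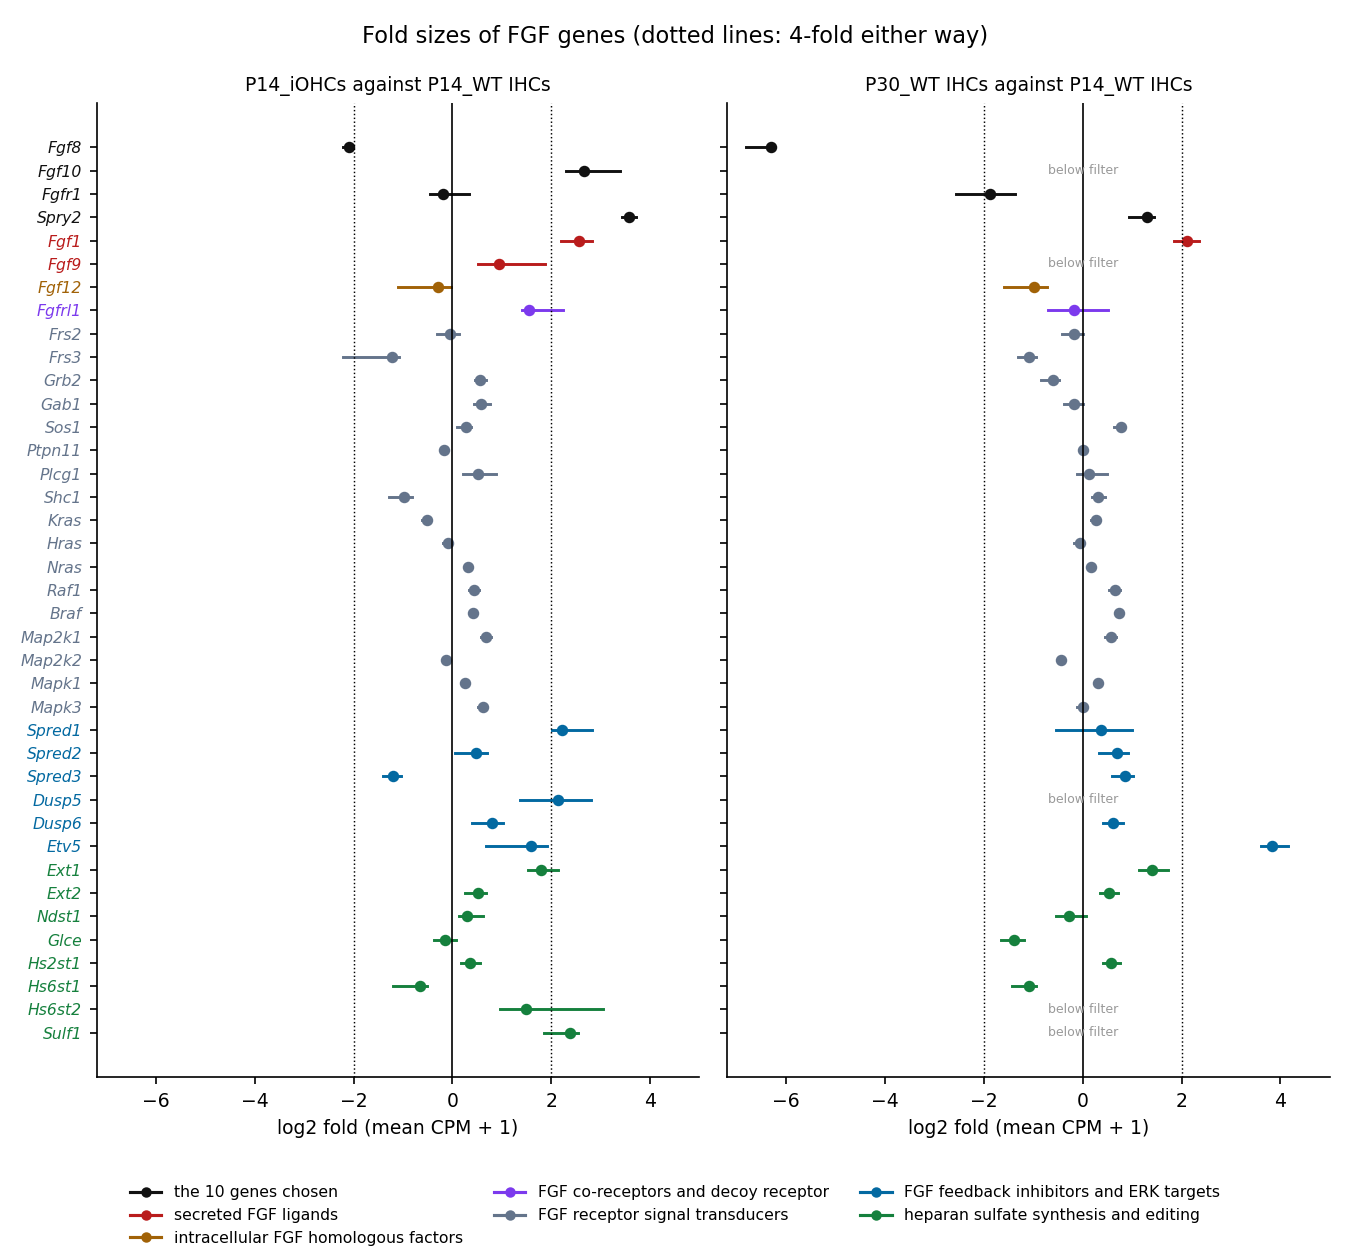
Log2 fold on the scale of mean CPM + 1 for the FGF genes that passed the filter in at least 1 comparison, P14_iOHCs over P14_WT IHCs on the left and P30_WT IHCs over P14_WT IHCs on the right; points are values over all cells, lines run from the lowest to the highest value with 1 cell left out, and dotted lines mark 4-fold. Fgf8 lay at -2.08 and -6.32, Spry2 at 3.58 and 1.30 and Etv5 at 1.58 and 3.84, and the points of the 17 transducers lay between the dotted lines.

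The 5 genes whose levels followed Fgf8 most closely over the cells of the 3 groups together, by Spearman's rho of log2(CPM + 1) among 14782 genes, were Kcnj13 (0.78), Car7 (0.69), Rprm (0.65), Slc34a3 (0.65) and Ppp1r32 (0.62). The points share groups and libraries, so these values largely rank the difference between groups, and they are given as a description. Kcnj13, a potassium channel gene, had means of 618, 234 and 2.01 CPM in P14_WT IHCs, P14_iOHCs and P30_WT IHCs, the same order as Fgf8. Rprm, which encodes the cell cycle inhibitor Reprimo, had means of 585, 3.28 and 4.25 CPM. Within the 55 P14_WT IHCs alone, rho with Fgf8 was 0.70 for Rprm, 0.62 for Kcnj13, 0.39 for Car7, 0.20 for Slc34a3 and 0.43 for Ppp1r32. Within the 46 P14_iOHCs it was -0.16 for Rprm, 0.19 for Kcnj13 and 0.45 for Car7. Among the IHC markers rho with Fgf8 in P14_WT IHCs was -0.15 for Slc17a8, 0.02 for Otof and -0.28 for Tbx2, so the cell-to-cell spread of Fgf8 did not follow theirs.

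**Figure D5:**
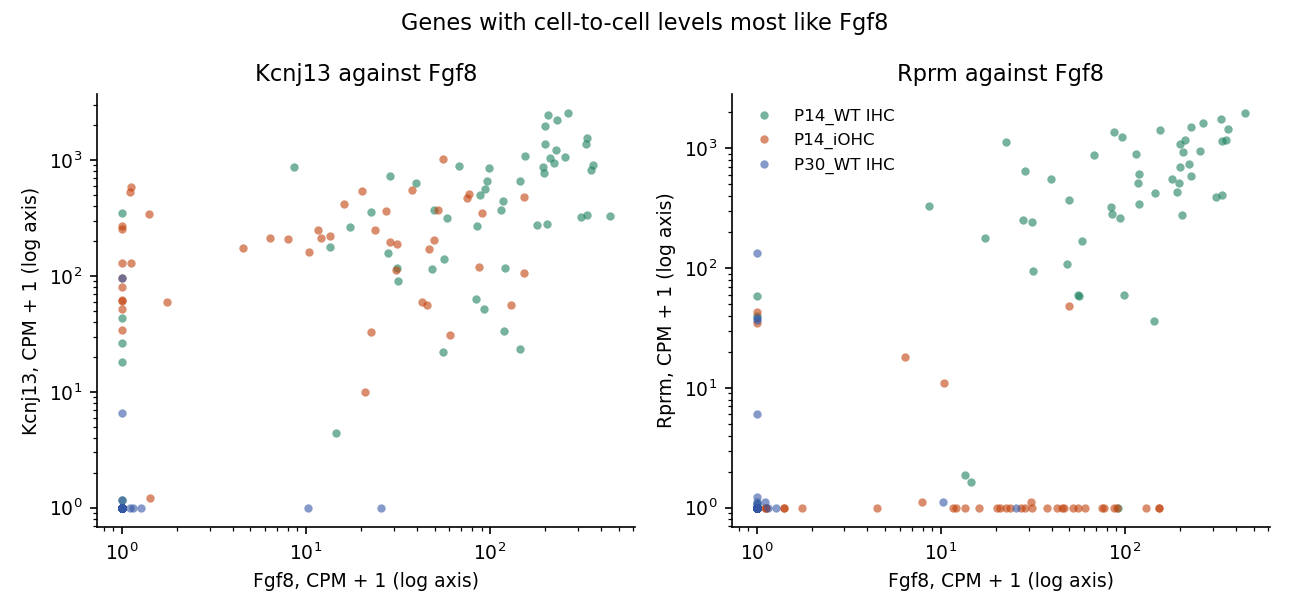
Levels of Kcnj13 and Rprm against Fgf8 in each cell, as CPM + 1 on log axes, coloured by group. In P14_WT IHCs both genes were higher in cells with more Fgf8 (rho 0.62 and 0.70), while in P14_iOHCs the means were lower, at 234 CPM against 618 CPM for Kcnj13 and 3.28 CPM against 585 CPM for Rprm.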

How the data were processed

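Single reporter-positive cells were picked by hand and amplified with a Smart-Seq HT kit. The authors aligned reads to GRCm38 with HISAT2 2.1.0 and counted them per gene with HTSeq 0.10.0, and the submitters' processing notes also name FastQC 0.11.9, Trimmomatic 0.39 and StringTie 1.3.5. The deposited values are these counts per gene, not normalized. The annotation release, the strand setting and how multimapped reads were handled are not given in the sources used here. No columns of other samples and no rows without a gene name were present, and 0 pairs of libraries within a group were identical.

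CPM was computed as the count over the cell's total times 1000000. A fold is the ratio of group means of CPM with 1 CPM added to both, which understates the change of low genes. The filter asked for 5 or more counts in 10 or more cells of a comparison, and a fold beyond 4 was called past the fold. These cells could all lie in 1 group, so a gene rare in the other could pass only through the group where it was higher. The paper's own test treats cells as replicates and was not used, because no source names the mouse of a cell. Shares have exact Clopper-Pearson 95% intervals and sums exact Poisson ones. Exon lengths and overlaps came from GENCODE M21, which gave lengths for 53292 genes, and promoter windows from RefSeq (GRCm38.p6). The steps used Python 3.11.15, pandas 2.3.3, numpy 2.4.6, scipy 1.17.1, matplotlib 3.10.9, R 4.3.3, edgeR 4.0.16 (TMM factors only) and DESeq2 1.42.0 (size factors only). The fold code, but not the filter, was tested on simulated data with the seed 20220. Only genes of higher level were changed there, so the test does not cover genes as low as Spry2, Fgf10 or Etv5 in P14_WT IHCs.

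The members and gene lists were chosen with earlier results of these data known. All members were named, as were pathway genes past 4-fold whose higher group averaged 5 CPM or more, the gene with the highest level per length in each list, and the 5 genes most like Fgf8. Frs3, Sulf1, Ext1, Fgfrl1 and the transcripts sharing exons were named after their values were seen.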

Additional observations from a re-analysis of the deposited data

How the results depend on the processing

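No paired analysis was possible because the results come from no test and no label pairs the cells of 1 group with those of another. The count of members past 4-fold at P14, 3, was 2 with DESeq2 size factors (Fgf10 and Spry2) and 2 with medians (Fgf8 and Spry2). It was 1 in the lower set of totals alone, where Fgf10 missed the filter at a log2 fold of 3.16 that rested on P14_iOHC 14. Without iOHCs high in supporting cell markers it was 1, with Fbxo2 in the list or left out. When 1 cell was left out it was 3 throughout. Over all genes tested at P14, 8.68% were past 4-fold, and 8.75% with DESeq2 size factors, 12.6% with medians and 8.36% in the lower set. Without the 12 or the 16 iOHCs high in supporting cell markers the share was 6.79% or 6.88%. The log2 fold of Fgf8 at P14 was -1.92 with DESeq2 size factors, -1.50 in the lower set, -1.80 without the 12 iOHCs high in supporting cell markers and -1.77 without the 16 iOHCs that were high with Fbxo2 left out, and -2.21 to -2.02 with 1 cell left out. The settings that leave out Fbxo2, and those without P14_iOHC 44, were chosen after seeing the data. With age, the count of 1 was 3 with 0.1 CPM added (Fgf8, Fgfr1 and Spry2), 2 with no filter (Fgf8 and Spry4) and 3 at 2-fold. It was 1 to 2 with 1 cell left out, the 2 without P30_WT IHC 14 or 41. The share of all genes tested moved too, from 2.09% to 4.62% with 0.1 CPM added and 1.37% with no filter. At 2-fold, 805 of 12946 genes were higher and 999 lower. The log2 fold of Fgf8 with age was -7.40 with 0.1 CPM added, -5.55 in the lower and -7.15 in the upper set of totals, and -6.81 to -6.25 with 1 cell left out. Fgf8, Fgf10 and Spry2 at P14 and Fgf8 with age kept their sign wherever they gave a value other than 0. The count of all genes past 4-fold moved by over 1.5 times, from 1187 at P14 to 714 in the lower set, and from 270 with age to 1335 with medians, 598 with 0.1 CPM added and 422 with no filter. The number tested moved as well, from 13673 to 8542 in the lower set and from 12946 to 30708 with no filter. As a share, the lower set thus stayed close, at 8.36% against 8.68%. With age the share rose to 10.3% with medians, and with no filter it fell, to 1.37% against 2.09%. DESeq2 size factors moved the median of all genes from 0.06 to 0.16 at P14 and from -0.02 to 0.26 with age. Spry2 at P14 was 2.07 with medians in place of means and 5.23 with 0.1 CPM added, and Fgf10 was 0 with medians.

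Shares of cells left the interval of the reported share mainly where at least 5 counts were asked for. In P14_iOHCs this gave 23.9% for Fgf10, 0% for Fgfr2, 2.17% for Fgfr4 and 0% for Spry4, and in P30_WT IHCs 8% for Fgfr1, 2.00% for Fgfr2 and 6.00% for Spry4. In P14_WT IHCs it gave 0% for Fgfr3, Fgfr4 and Spry4, and thinning to the lowest total also gave 0% for Fgfr3 and Fgfr4. The shares of Fgf8 and Spry2 stayed within their intervals under both settings. With 1 sample of cells per group, no value here has a check across mice, and a gene at 0 in a cell can lie below 3 counts.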

Other observations

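The genes next in likeness to Fgf8 within P14_WT IHCs alone included Ocm and Calb1, which encode calcium-binding proteins. Over those 55 cells Spearman's rho with Fgf8 was 0.57 for Gm1113, 0.56 for Ocm and 0.55 for Calb1, with Rprm and Kcnj13 above them. Ocm, which encodes oncomodulin and is best known from OHCs, had means of 744 CPM in P14_WT IHCs, 37457 CPM in P14_iOHCs and 891 CPM in P30_WT IHCs, and its rho with Fgf8 within P14_iOHCs was -0.07. Calb1, which encodes calbindin, had means of 583, 501 and 2.51 CPM in the same groups, so that it was low at P30, as Kcnj13 was. These genes were ranked after the values were seen, and cells of a group share mice that the labels do not name.

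Kl, which encodes the FGF co-receptor Klotho, was found in 2 of 55 P14_WT IHCs, 17 of 46 P14_iOHCs and 1 of 50 P30_WT IHCs. Its highest level, 88.2 CPM, was in P14_iOHC 44, the cell whose marker sums went against its label. Of the summed level of the P14_iOHCs, 74.6% lay in that cell.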
